A study of Mus musculus with 768 samples.

Results

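Collagens and laminins were described by their reads in single mammary cells of mice with and without active Notch1. The members are the rows whose symbol is Col or Lam followed by a chain number in the form of a collagen alpha chain or of a laminin alpha, beta or gamma chain. This gave 55 genes among 23997 gene names, 44 collagen and 11 laminin genes. Of these, 37 reached 5 CPM (reads of a gene scaled to a common total of reads) in the summed reads of either plate, 28 collagen and 9 laminin genes, and 21 reached 20 CPM. The other 18 lay between 0.0865 and 3.92 CPM in the control and from 0.103 to 4.89 CPM in the N1ICD-EGFP plate, and each had reads in both plates. Among them are the cartilage collagen Col2a1 and the laminin chains Lama1 and Lamc3.

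Collagens are triple helices of alpha chains. The fibrillar types I, III and V give connective tissue its strength and are made mainly by fibroblasts. Type IV and the laminins, which are trimers of an alpha, a beta and a gamma chain, each build a network, and together these networks form the basement membrane on which mammary epithelium rests. Mammary basal (myoepithelial) cells touch this membrane, bind laminin through integrins and are known for making much of it. Type VI forms beaded microfilaments from different chains that combine in the cell, type VIII forms networks in vessel walls and the cornea, and type IX coats cartilage fibrils.

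The study profiled single cells of inguinal mammary glands by Smart-Seq2, a full-length method without molecular identifiers, and compared 2 genotypes of C57BL/6 mice. Both genotypes include WAP-CRE, in which a milk protein promoter drives Cre. This promoter is active in alveolar luminal cells during pregnancy and lactation. The control group carried R26-tdTomato, a red reporter at the Rosa26 locus, and the other group R26-N1ICD-EGFP, the constitutively active intracellular part of Notch1 with a green reporter. Cells positive for GFP or tdTomato were sorted into 384 wells per group, after what the labels give as 3 to 4 months of lactation. The labels name no animals. Each plate is therefore 1 sample, there are no p-values, and an effect of genotype cannot be told apart from one of the plate or of the reporter.

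After the filters of at least 50000 reads and 1000 genes, 86.98% of control and 73.7% of N1ICD-EGFP wells remained, with medians of 241888 and 348469 reads. Krt8, the keratin of luminal cells, had a read in all but 21 kept control and 54 kept N1ICD-EGFP cells. In pairs of values below, the control plate comes first. Ptprc, the leukocyte antigen CD45, had a read in 43 and 58 cells, of which 29 and 16 also had a Krt8 read. The eGFP row never exceeded 2 reads in a control cell, and 85 N1ICD-EGFP cells had 3 or more. A cell is therefore said to carry a gene from 3 reads on. The cell classes and thresholds used below were chosen after the data were seen, and a class is a range of cells and not a cell type. The plate sums held 97995 member reads (1211 CPM) in control and 151469 (1556 CPM) in N1ICD-EGFP cells.

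Of the 37 members, 11 were at least 2 times higher in the N1ICD-EGFP plate, where 11.1% of the 12021 genes at 5 CPM were, and 6 were at least 2 times lower, against 8.29% of all genes. The median log2 ratio (N1ICD-EGFP over control, CPM plus 1) was 0.23 for the members and 0.07 for all genes. The collagens held most of these differences, with 10 of 28 higher and 5 of 28 lower. Intervals here and below are 95% intervals of counting error alone (exact Poisson for CPM, Clopper-Pearson for shares of cells). They do not cover differences between animals. In a plate sum, more carrying cells and more reads per cell cannot be told apart, so the carrying cells are given beside each sum. The reads of a single collagen often lay in few cells, but these cells differed between genes. The 5 cells with the most member reads held 14.3% and 35.2% of all member reads. The median share of a collagen's reads in its 5 highest cells was 65.7% and 89.9%, against 24.1% and 37.6% over all genes. For the laminins the medians were 23.6% and 52.5%.

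**Figure D1:**
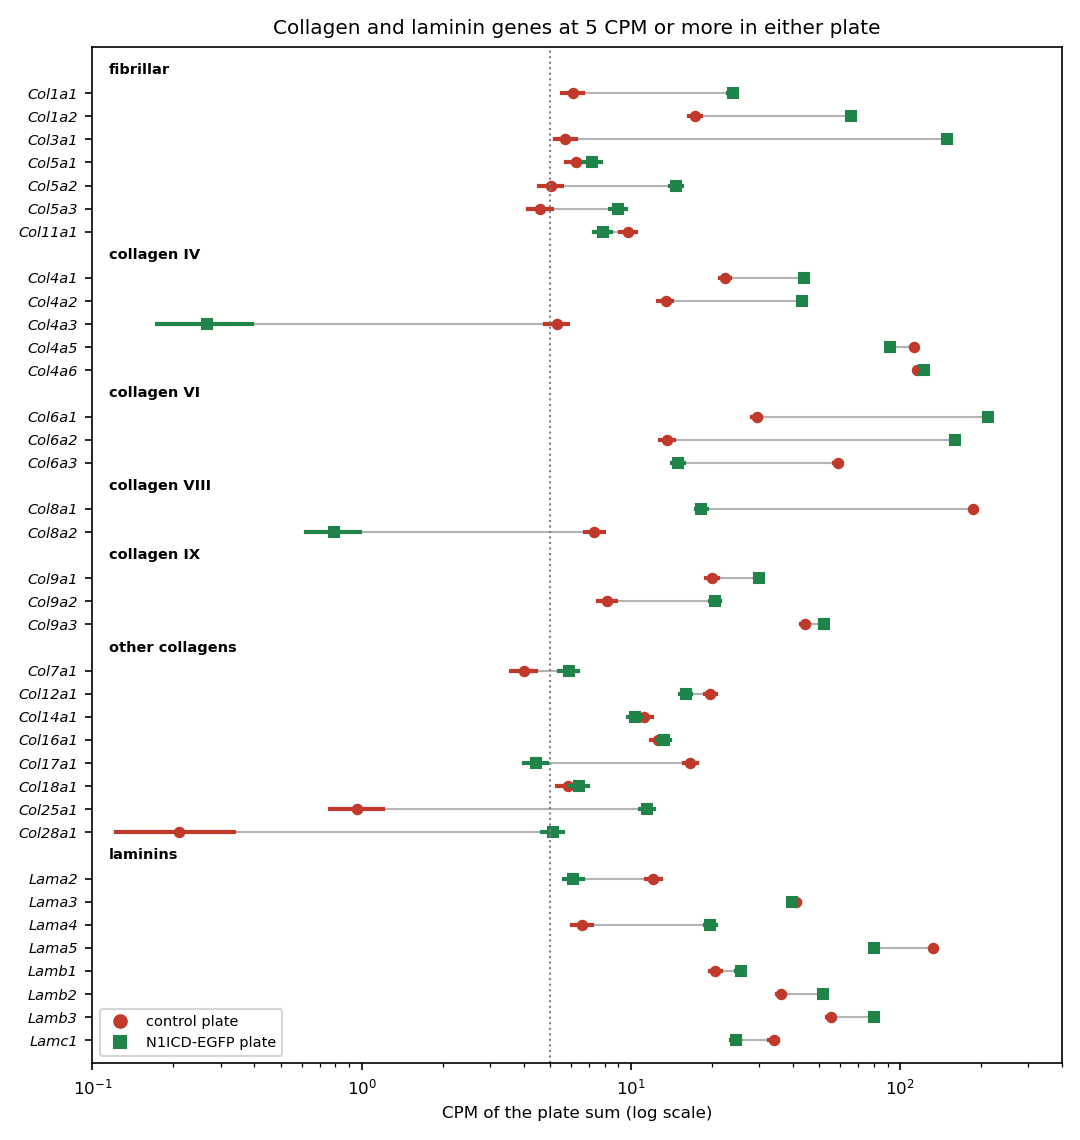
CPM of the plate sum (log axis) of collagen and laminin genes at 5 CPM or more, with the control plate as red circles, the N1ICD-EGFP plate as green squares, thick bars for the Poisson interval and a dotted line at 5 CPM. Col3a1, Col6a1 and Col6a2 lie far to the right in the N1ICD-EGFP plate and Col8a1 far to the right in the control plate, while most laminins lie close together.

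The fibrillar collagens together were at 57.5 CPM (55.9 to 59.2) in control and 280.6 CPM (277.3 to 283.9) in N1ICD-EGFP cells, a log2 ratio of 2.27, and the reads of types I and III came mostly from 2 cells in each plate. Col3a1, the chain of type III collagen (chr1:45311538-45349706 of GRCm38, plus strand), had 5.72 CPM (5.21 to 6.27) and 149.7 CPM (147.3 to 152.1). Its 2 highest control cells held 414 and 29 of 463 reads, and its 2 highest N1ICD-EGFP cells 8033 and 6521 of 14570. No other cell had more than 6 reads. Col1a1 and Col1a2, the chains of type I, were at 6.08 against 23.9 CPM and at 17.3 against 65.8 CPM. The same 2 cells per plate held 85.4% and 99.4% of the Col1a1 reads, and 92.9% and 98.5% of the Col1a2 reads.

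These 4 cells carried at least 5 of 9 fibroblast markers (7 each in the control, 8 each in the N1ICD-EGFP plate). Decorin (Dcn), a proteoglycan that binds collagen fibrils, had 5826 and 20435 reads in the control pair and 10074 and 6751 in the other. Krt8 had 0 or 1 read and eGFP and Ptprc none in all 4. Of the type V chains, which start fibrils, Col5a1 and Col5a2 were less tied to these cells in the control plate, and Col5a3 was not. Col5a1 was at 6.28 against 7.2 CPM, Col5a2 at 5.05 against 14.7 CPM, and Col5a3 at 4.61 against 8.95 CPM. The cells with fibroblast markers held 44.1% of control and 99% of N1ICD-EGFP reads of Col5a1. For Col5a2 these shares were 27.1% and 63.3%, and for Col5a3 94.9% and 92.9%. Control cells with basal markers held 46.5% of the Col5a1 and 64.8% of the Col5a2 reads. The highest N1ICD-EGFP cell of Col5a2, with 509 reads, lay outside the cells with fibroblast markers. Col11a1, a chain of type XI, was read in other cells. It was at 9.77 against 7.88 CPM, with 99.9% and 100% of its reads in cells with a Krt8 read. In the N1ICD-EGFP plate 98.7% of them lay in cells with 3 or more eGFP reads, which held 34.4% of all reads, and 48.6% in a single cell.

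Per cell with fibroblast markers, Col3a1 was at 168.6 and 1019 CPM in control and at 13926 and 16295 CPM in N1ICD-EGFP cells. Col1a1 was at 354.7 and 884 against 2258 and 2563 CPM. Other members were lower in the N1ICD-EGFP pair, with Col6a1 at 2221 and 3409.7 against 1418 and 2162 CPM and Lama2 at 1312 and 2059 against 519 and 559.5 CPM. With 2 cells a plate, this describes these cells and not the genotypes. Within the cells with a Krt8 read the direction turned, and the summed fibrillar collagens had a log2 ratio of -1.20. Through a single Krt8 read, these cells include 1 of the 2 control cells with fibroblast markers, with 709 Col1a2 reads. Neither cell of the N1ICD-EGFP pair had a Krt8 read. The value of -1.20 is therefore not one of epithelial cells alone. Without the 5 cells of each plate with the most member CPM the log2 ratio of the summed fibrillar collagens was 0.10.

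The collagen IV genes lie in the genome as head-to-head pairs, and the pairs differed in the cells that carried them. Col4a5 and Col4a6 (chrX:141475385-141689234, plus strand, and chrX:141165403-141474076, minus strand) encode chains of epithelial basement membranes. Both were spread over many cells and differed by less than 2 times between the plates. Col4a5 was at 112.4 CPM (110.1 to 114.8) and 91.7 CPM (89.8 to 93.6), and was carried by 44.01% of control cells (interval 38.6 to 49.5) and 88 N1ICD-EGFP cells (31.1%, interval 25.7 to 36.8). Col4a6 was at 115.8 CPM (113.4 to 118.1) and 123.4 CPM (121.2 to 125.6), and was carried by 37.7% of control cells (interval 32.5 to 43.2) and 36.4% of N1ICD-EGFP cells (interval 30.8 to 42.3). Their 5 highest cells held between 16.8% and 20.4% of the reads, and all of these cells had Krt8 reads, from 21 to 774. At least 97.4% of the reads of each lay in cells with a Krt8 read. In the cells with a Ptprc and no Krt8 read, Col4a5 had 6 reads in 14 control cells and 1 read in 42 N1ICD-EGFP cells, and Col4a6 had 47 and 2 reads.

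Both genes were carried together by 65 control and 51 N1ICD-EGFP cells. In the control plate, Col4a6 was at 25.2 CPM in the 70 cells with 1000 CPM or more of Prlr, the prolactin receptor, and at 148.6 CPM in the others. Col4a5 showed a smaller gap in the same direction, at 52.4 and 134.2 CPM. Among the N1ICD-EGFP cells with a Krt8 read, those with 3 or more eGFP reads had 165.1 CPM of Col4a6 and 78.6 CPM of Col4a5. Those with no eGFP read had 145.5 and 145.1 CPM.

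Col4a1 and Col4a2 (chr8:11198423-11312826, minus strand, and chr8:11312805-11449287, plus strand), the chains of nearly all basement membranes, were carried by fewer cells. Col4a1 was at 22.4 CPM (21.4 to 23.5) and 44.01 CPM (42.7 to 45.3), in 36 control and 29 N1ICD-EGFP cells. Col4a2 was at 13.5 CPM (12.7 to 14.3) and 43.3 CPM (42.01 to 44.6), in 25 and 16 cells. The annotated exons of these genes overlap on opposite strands, and whether reads were counted by strand is not given in the sources used here. Either gene may hold reads of the other. In the annotation used here the genes overlap only between bases 11312805 and 11312826. The higher N1ICD-EGFP sums came from few cells. A single cell with fibroblast markers held 54.1% of the Col4a1 and 39.7% of the Col4a2 reads of that plate. The next cell had 474 Col4a1 and 1319 Col4a2 reads together with 1826 reads of the endothelial adhesion gene Pecam1 and none of Krt8. In the cells with a Krt8 read the log2 ratio of Col4a2 turned to -0.71. In the control plate the cells with fibroblast, endothelial or basal markers held 10.5%, 24.04% and 25.7% of the Col4a2 reads. The control class with endothelial markers was 1 cell, which carried Epcam and had a Krt8 read, so it counts among the Krt8-read cells. None of the 3 N1ICD-EGFP cells with endothelial markers had a Krt8 read. Col4a3, known from kidney basement membrane, was at 5.31 against 0.267 CPM. Its 2 highest control cells held 84.4% of the control reads.

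**Figure D2:**
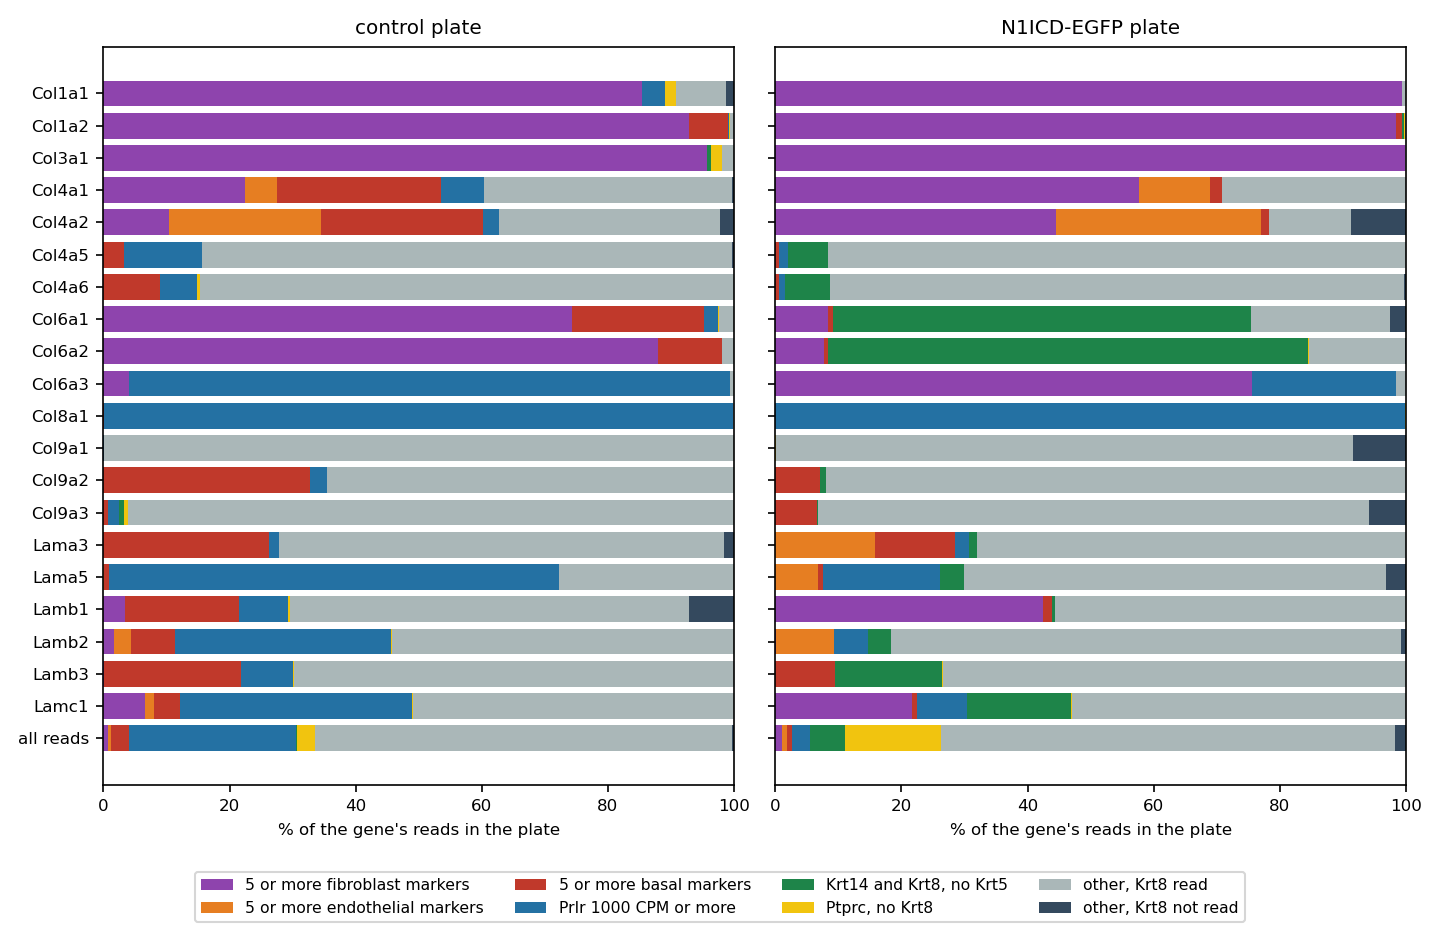
Share of the reads of genes at 20 CPM or more, and of all reads, that lay in 8 classes of cells, as stacked bars for the control (left) and the N1ICD-EGFP plate (right). Col1a1, Col1a2 and Col3a1 lie mostly in the cells with fibroblast markers in both plates, Col8a1 in the Prlr-high cells, and Col6a1 and Col6a2 in cells with fibroblast markers in the control but in cells with Krt14 and Krt8 in the N1ICD-EGFP plate.

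The collagen VI chains differed between the plates in opposite directions. Col6a1 and Col6a2, its short chains, were higher in the N1ICD-EGFP plate, and Col6a3, the long chain, was higher in the control plate. Col6a1 was at 29.4 CPM (28.2 to 30.6) and 212.1 CPM (209.2 to 215.001), a log2 ratio of 2.81, and Col6a2 at 13.7 CPM (12.9 to 14.5) and 160.4 CPM (157.8 to 162.9), a log2 ratio of 3.46. Col6a3 was at 58.6 CPM (56.97 to 60.3) and 15.04 CPM (14.3 to 15.8), a log2 ratio of -1.89. All 3 stayed at least 2 times apart in the same direction in each of the 14 settings tried for single genes.

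Carrying cells differed in number as well. Col6a1 was carried by 15 control cells (4.49%, interval 2.54 to 7.30) and 31 N1ICD-EGFP cells (10.95%, interval 7.57 to 15.2). Col6a2 was carried by 9 control cells (2.69%, interval 1.24 to 5.05) and 29 N1ICD-EGFP cells (10.2%, interval 6.97 to 14.4), and Col6a3 by 45 control cells (13.5%, interval 10 to 17.6) and 5 N1ICD-EGFP cells (1.77%, interval 0.576 to 4.07). Counting any read, 6.59% and 15.2% of the cells had Col6a1 and 16.8% and 3.18% Col6a3. After thinning each cell to 50000 reads, 4.79% of control and 10.95% of N1ICD-EGFP cells had a Col6a1 read, and 13.8% and 2.12% a Col6a3 read.

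The short chains were carried together and without the long chain. Of 24 N1ICD-EGFP cells that carried both Col6a1 and Col6a2, 22 had no read of Col6a3, and the other 2 were the cells with fibroblast markers. In those 22 cells Col6a1 ranged from 5 to 4144 reads with a median of 662, and Col6a2 from 13 to 3562 with a median of 380.5. Of these cells, 21 carried Krt8, 22 Epcam, a surface protein of epithelium, 14 Krt14, a keratin of basal cells, and 12 eGFP. None of the 24 carried Krt5, the usual partner of Krt14, which was carried by 7 cells of the plate. In the control plate 5 cells carried both short chains. They were the 2 cells with fibroblast markers, which also carried Col6a3, 2 cells with Krt14, Krt5 and Acta2, and a further cell with Epcam. The 3 cells without Col6a3 all carried Krt8. Of the 45 control cells that carried Col6a3, 39 carried neither short chain.

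The N1ICD-EGFP plate held 15 cells with 3 or more reads of both Krt14 and Krt8 and no Krt5 read. All 15 carried Kit, a receptor of luminal progenitors, and Epcam, 3 carried Elf5, a luminal progenitor and alveolar factor, none carried Acta2, the smooth muscle actin of basal cells, and 8 had 3 or more eGFP reads. They made up 5.55% of the plate's reads and held 20.2% of its member reads. Col6a1 lay between 0 and 8728 CPM in these cells with a median of 1849, and was carried by 12 of 15 (80%, interval 51.9 to 95.7). Col6a2 lay between 0 and 7502 CPM with a median of 1489.8, also in 12 cells. These cells held 66.3% of the Col6a1 and 76.2% of the Col6a2 reads of the plate, and no Col6a3 read. The 4 control cells picked in the same way had 0 Col6a1 reads. They differed in other markers too, as 3 of them carried Prlr, 3 Pgr and 1 Kit, while none of the 15 carried Prlr and 1 carried Pgr, so the groups are not matched cells.

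By eGFP, the 84 N1ICD-EGFP cells with a Krt8 read and 3 or more eGFP reads had 324.9 CPM of Col6a1 and 305.1 CPM of Col6a2, in 15 and 13 carrying cells. Those with a Krt8 and no eGFP read had 150.6 and 76.7 CPM, in 11 and 10 cells. Both values lay above the 14.6 and 7.29 CPM of such control cells. A single cell with 3 eGFP reads, just at the threshold, had 4144 Col6a1 and 3562 Col6a2 reads. These were 20.1% and 22.8% of the plate's reads of the 2 genes, so the level of the eGFP group rests in part on this cell. In the N1ICD-EGFP cells with a Ptprc and no Krt8 read, Col6a1 was at 0.336 CPM, with no carrier among 42 cells.

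**Figure D3:**
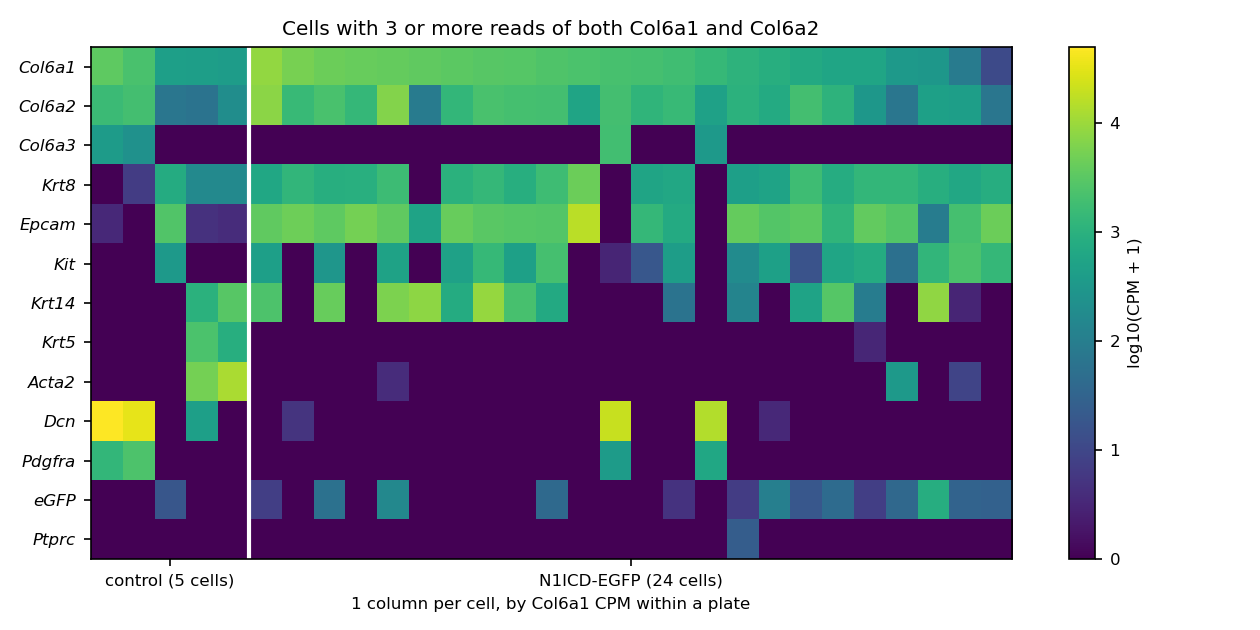
log10(CPM + 1) of the collagen VI chains and of other genes in each cell with 3 or more reads of both Col6a1 and Col6a2, 1 column per cell, with 5 control cells left and 24 N1ICD-EGFP cells right of the white line. Col6a3 shows only in the columns with Dcn and Pdgfra, and the other N1ICD-EGFP columns show Epcam, mostly with Krt8 and often with Krt14 or eGFP.

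The promoters of the short chains are shown beside that of the long chain, since Col6a1 and Col6a2 were carried together and Col6a3 apart from them, and beside that of Col8a1, which follows Col6a3 below. Each line gives the bases just before the gene's start in the GENCODE annotation, read from RefSeq's promoter table for GRCm38.p6, 5′ to 3′ on the gene's own strand, which is minus for all. The RefSeq start of Col6a1 lies inside the GENCODE gene, so its line ends short of the RefSeq start, while both starts are the same for the others. The windows are chr10:76726169-76726294 for Col6a1, chr10:76623631-76623756 for Col6a2, chr1:90843972-90844097 for Col6a3 and chr16:57754738-57754863 for Col8a1. The letters TGGGAA, the core of the motif bound by Rbpj, the DNA-binding partner of N1ICD, were searched on both strands of the 250 bases before each RefSeq start. They were found in none of the 4 windows and in 21.6% of 32851 such windows of all genes, so nothing is in capitals. A missing match says only that these letters are not in this window.
Col6a1: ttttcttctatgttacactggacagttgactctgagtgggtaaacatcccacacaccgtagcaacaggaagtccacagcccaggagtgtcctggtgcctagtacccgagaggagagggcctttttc
Col6a2: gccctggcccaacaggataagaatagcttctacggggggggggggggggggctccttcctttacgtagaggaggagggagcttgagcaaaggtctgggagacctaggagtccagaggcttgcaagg
Col6a3: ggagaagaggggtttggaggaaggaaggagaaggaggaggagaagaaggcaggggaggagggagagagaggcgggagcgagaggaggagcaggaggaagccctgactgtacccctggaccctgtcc
Col8a1: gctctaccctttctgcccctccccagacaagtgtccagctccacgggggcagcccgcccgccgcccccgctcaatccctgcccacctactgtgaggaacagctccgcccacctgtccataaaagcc
The share of G and C was 51.6% for Col6a1, 61.1% for Col6a2, 62.7% for Col6a3 and 66.7% for Col8a1.

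Col8a1, the alpha 1 chain of the network collagen VIII (chr16:57624258-57754737, minus strand), was at 186.1 CPM (183.2 to 189.1) and 18.3 CPM (17.5 to 19.2), a log2 ratio of -3.28, the lowest of the 37. It was carried by 63 control cells (18.9%, interval 14.8 to 23.5) and 4 N1ICD-EGFP cells (1.41%, interval 0.386 to 3.58). Nearly all of its reads lay in cells with high Prlr. In the control plate, 70 cells had 1000 CPM or more of Prlr, and 64 of them carried Pgr, the progesterone receptor, and 43 Esr1, the oestrogen receptor, which mark hormone-sensing luminal cells. Of the other control cells, 2 carried Col8a1. The Prlr-high cells held 99.7% of the Col8a1 reads, at 697 CPM (686 to 709), and 61 of 70 (87.1%, interval 76.99 to 93.9) carried it.

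The N1ICD-EGFP plate held 7 Prlr-high cells, of which 5 carried Pgr and 5 Esr1, and none had an eGFP read. Of these cells 4 of 7 (57.1%, interval 18.4 to 90.1) carried Col8a1, with between 89 and 762 reads, and together they held 99.9% of its reads. Their summed level of 641 CPM (611 to 671) lay close to that of the control cells picked in the same way. Per cell, the medians were 508 CPM in the control (0 to 3342) and 265.98 CPM in the N1ICD-EGFP plate (0 to 1738), so the ranges overlapped. Between 500 and 2000 CPM of Prlr lay 18 control and 6 N1ICD-EGFP cells. None of the 85 cells with 3 or more eGFP reads had a Col8a1 read, which only 6 cells of the plate had.

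Col6a3 and Lama5 shared these cells. The control Prlr-high cells held 95.3% of the Col6a3 reads, at 209.9 CPM against 3.77 CPM in the other cells, and 41 of 70 (58.6%, interval 46.2 to 70.2) carried it. The N1ICD-EGFP Prlr-high cells had 120.7 CPM, with 2 carriers among 7, while the cells with fibroblast markers held 75.5% of the Col6a3 reads of that plate. The other chain of type VIII, Col8a2, was at 7.33 against 0.791 CPM. It was carried by 20 control cells, 15 of them Prlr-high, and by 1 N1ICD-EGFP cell, which was also Prlr-high. By reads, the control Prlr-high cells held 39.1% of Col8a2, the basal marker cells 28.3%, other cells with a Krt8 read 20.7% and cells with a Ptprc and no Krt8 read 11.8%.

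**Figure D4:**
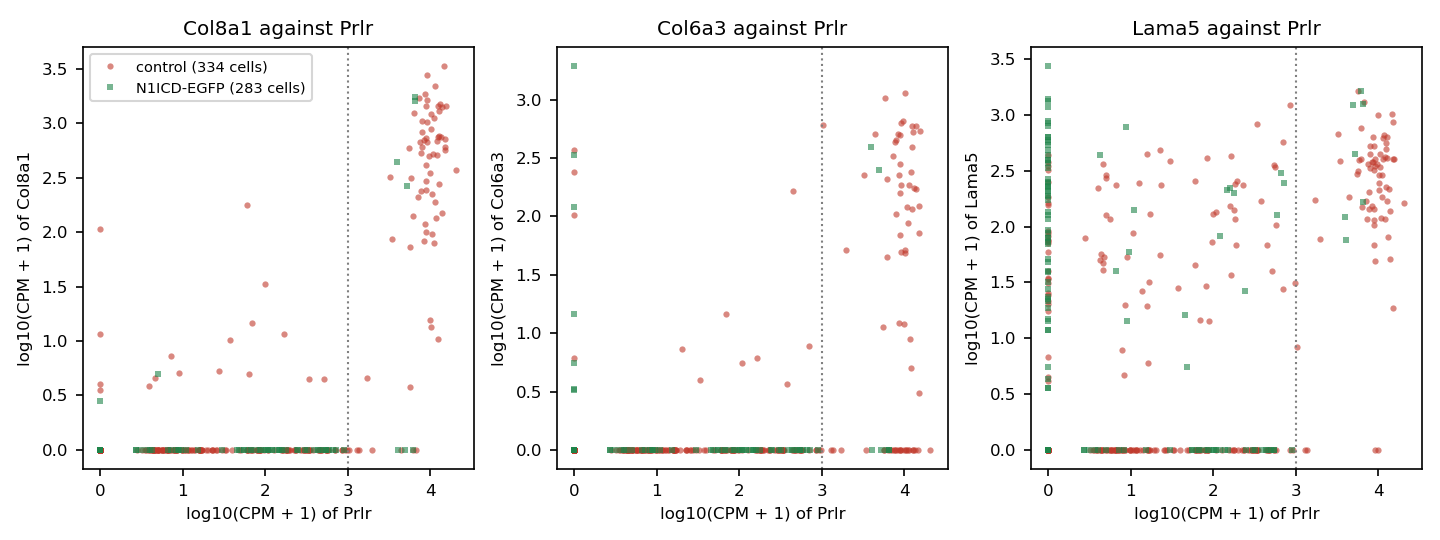
log10(CPM + 1) of Col8a1, Col6a3 and Lama5 against that of Prlr in each cell, with control cells as red circles, N1ICD-EGFP cells as green squares and a dotted line at 1000 CPM of Prlr. Col8a1 and Col6a3 are high to the right of the line, where 70 control and 7 N1ICD-EGFP cells lie, and Lama5 is read on both sides.

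The collagen IX chains were read mostly outside the marker classes, in cells with a Krt8 read, with Col9a2 also in basal cells of the control. Col9a1 was at 20.01 CPM (19.05 to 21.01) and 30.01 CPM (28.9 to 31.1), Col9a2 at 8.17 CPM (7.55 to 8.81) and 20.5 CPM (19.6 to 21.4), and Col9a3 at 44.3 CPM (42.8 to 45.7) and 52.1 CPM (50.6 to 53.5). Only Col9a2 passed 2 times, with a log2 ratio of 1.23. Carriers numbered 22, 32 and 80 among control cells, and 25, 29 and 50 among N1ICD-EGFP cells, and all 3 chains were carried together by 3 and 2 cells. Between 91.6% and 100% of the reads lay in cells with a Krt8 read, which 6 of the 8 control cells with 5 or more basal markers also had. These 8 cells held 32.7% of the control Col9a2 reads, with 2.85% of all reads. In the control Prlr-high cells Col9a3 was at 2.92 CPM against 59.3 CPM elsewhere, and no N1ICD-EGFP Prlr-high cell had a read of it. Of the 53 control cells at 100 CPM or more of Col9a3, 46 carried Elf5 and 46 Kit, which 65.6% and 64.97% of all control cells carried. The annotated exons of Col9a3 overlap with Tcfl5 on the opposite strand. Its 5 highest cells held 19.6% and 32.8% of the reads, where those of Col9a1 held 46.1% and 53%.

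Of the other collagens, Col17a1, the transmembrane collagen of hemidesmosomes, was at 16.7 against 4.43 CPM. In the control plate 8 cells carried 5 or more of 11 basal markers, in the N1ICD-EGFP plate 2, and these held 93.7% and 75.6% of its reads. All 8 control cells carried Krt14, Krt5 and Acta2. Per cell Col17a1 had a median of 619 CPM in the control cells (0 to 976), and the 2 N1ICD-EGFP cells had 335.5 and 546 CPM, within that range. Col17a1 turned to a log2 ratio of 0.41 in well columns 13 to 24. Of the 10 control cells at 100 CPM or more of it, 9 lay in columns 1 to 12 and 1 in columns 13 to 24. Col14a1, a collagen of the fibril surface, was at 11.2 against 10.4 CPM. The basal marker cells held 81.9% of its control reads, and in the N1ICD-EGFP plate they held 48.2% and the cells with fibroblast markers 50.3%. Col12a1, of the same group, was at 19.8 against 15.99 CPM, with 57.4% of its control and none of its N1ICD-EGFP reads in basal marker cells.

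Col25a1, a transmembrane collagen known from neurons and muscle innervation, was at 0.964 against 11.5 CPM, and Col28a1, known from Schwann cells, at 0.210 against 5.13 CPM. All of their N1ICD-EGFP reads lay in cells with a Krt8 read. Col25a1 was carried by 6 control and 18 N1ICD-EGFP cells, and 52.1% of its N1ICD-EGFP reads lay in the 85 cells with 3 or more eGFP reads, which held 64.9% of those of Col28a1. These cells held 30.9% of all member reads and 34.4% of all reads of the plate. Col28a1 was carried by 1 and 12 cells, and its highest N1ICD-EGFP cell held 29.3% of the reads there. The remaining collagens differed by less than 2 times. Col7a1, the anchoring fibril collagen, was at 4 against 5.88 CPM, Col16a1 at 12.6 against 13.2 CPM, and Col18a1, a basement membrane collagen, at 5.86 against 6.43 CPM.

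**Figure D5:**
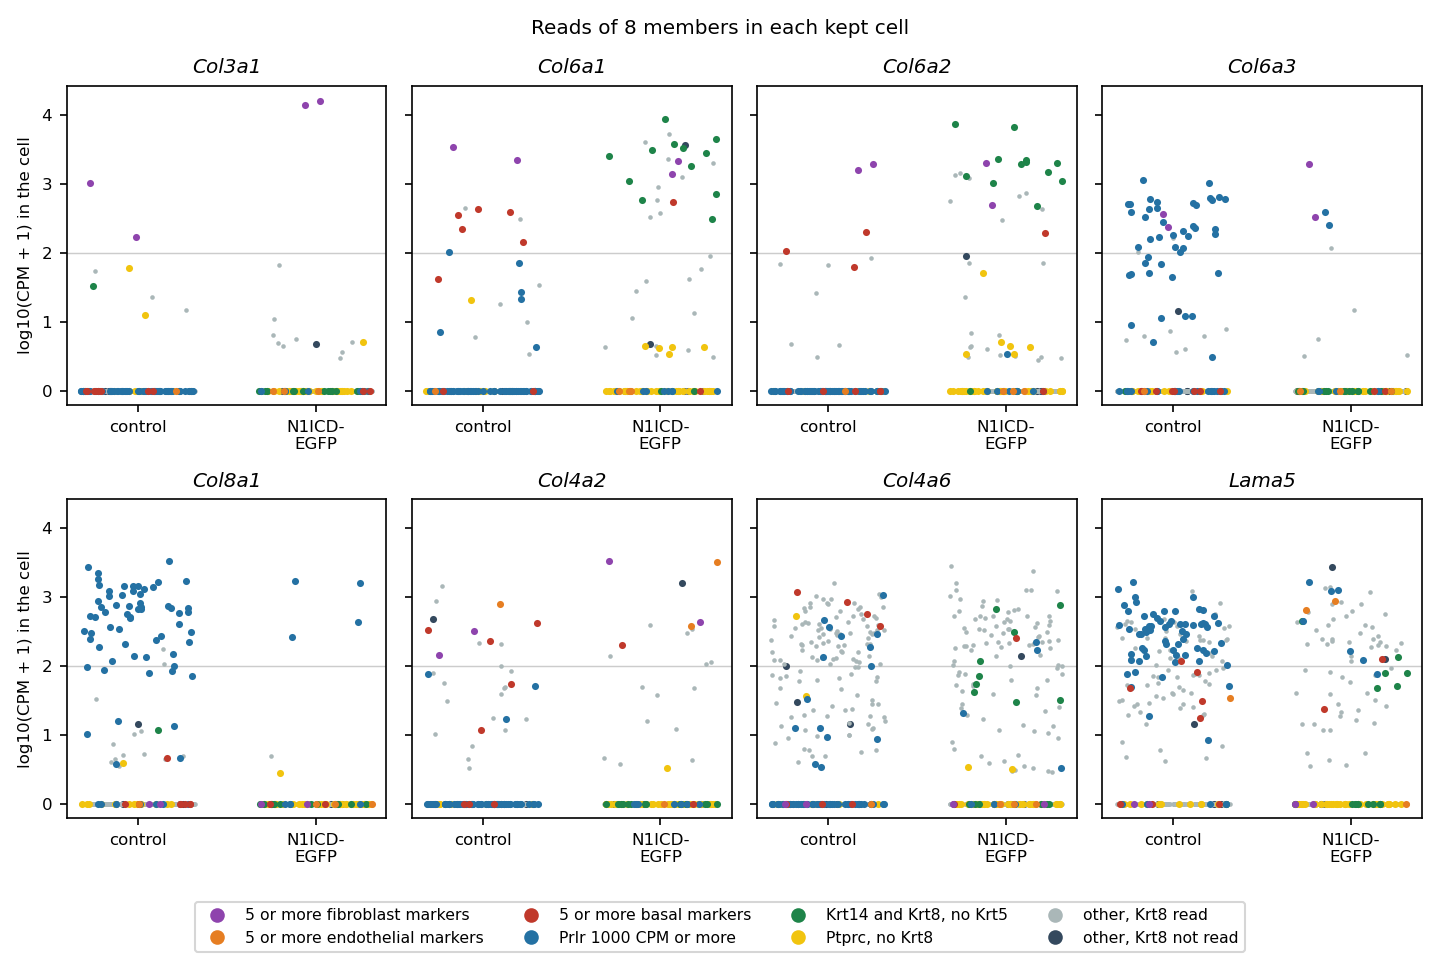
log10(CPM + 1) of 8 genes in every kept cell, 1 point per cell, with control cells left and N1ICD-EGFP cells right in each panel, coloured by class of cell, and a grey line at 2. Col3a1 is high in 2 purple points (fibroblast markers) per plate, Col6a1 and Col6a2 in green points (Krt14 and Krt8) of the N1ICD-EGFP plate, and Col6a3 and Col8a1 in blue points (Prlr-high), while Col4a6 and Lama5 are spread over many cells.

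The laminins as a group were at 432.5 against 375.1 CPM, a log2 ratio of -0.20. In the control plate 2 of the 9 chains (22.2%), and in the N1ICD-EGFP plate 5 (55.6%), had most of their reads in 5 cells. Over all genes at 5 CPM in the plate, 17% and 33.8% did. Lama5, the alpha chain of laminin-511 and laminin-521, was at 132.99 CPM (130.5 to 135.5) and 80.2 CPM (78.4 to 82.02), and was carried by 42.8% of control cells (interval 37.4 to 48.3) and 73 N1ICD-EGFP cells (25.8%, interval 20.8 to 31.3). In the Prlr-high cells it was at 357.1 CPM in control and 523 CPM in N1ICD-EGFP cells, and in all other cells at 51.7 and 67.2 CPM. Lama5 was thus higher in the N1ICD-EGFP plate on both sides of the Prlr threshold and lower in the sum, with 70 control and 7 N1ICD-EGFP cells on the high side. Of these cells, 65 of the 70 and all 7 carried it.

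Lama3 and Lamb3 encode chains of the laminin of hemidesmosomes, the junctions that anchor epithelium. Lama3 was at 40.96 CPM (39.6 to 42.4) and 39.7 CPM (38.5 to 41.01), in 68 and 32 carrying cells. Lamb3 was at 55.4 CPM (53.8 to 57.01) and 79.97 CPM (78.2 to 81.8), in 81 and 69 cells. In the control Prlr-high cells Lamb3 was at 17.1 CPM, against 69.2 CPM in the other cells. The 8 control cells with basal markers held 26.3% of the Lama3 and 21.8% of the Lamb3 reads, with 2.85% of all reads. The N1ICD-EGFP cells with Krt14 and Krt8 and no Krt5 had Lamb3 at 244.7 CPM.

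Of the other chains, Lamb1 was at 20.6 CPM (19.6 to 21.6) and 25.6 CPM (24.6 to 26.6), in 47 and 19 cells. The 2 N1ICD-EGFP cells with fibroblast markers held 42.5% of its reads there, against 3.48% in the control pair. Lamb2 was at 36.2 CPM (34.9 to 37.6) and 51.7 CPM (50.3 to 53.1), in 100 and 80 cells. Lamc1, the gamma chain of most laminins, was at 34 CPM (32.7 to 35.3) and 24.5 CPM (23.5 to 25.5), in 70 and 28 cells. The chains of laminin-521 (Lama5, Lamb2, Lamc1) were carried together by 25 control and 5 N1ICD-EGFP cells, and those of laminin-511 (Lama5, Lamb1, Lamc1) by 7 and 1. Lama2, the alpha chain of muscle and connective tissue, was at 12.1 against 6.12 CPM, with 90.2% and 86.9% of the reads in the cells with fibroblast markers. Lama4, a chain of vessel walls, was at 6.58 against 19.7 CPM, a log2 ratio of 1.45. Its highest N1ICD-EGFP cell held 36.4% of the reads and had 479 reads of Krt8 and none of Pecam1.

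Over all members, cells with a Krt8 read held 92.6% of the member reads in control and 70.99% in N1ICD-EGFP cells, where they held 95.6% and 81.1% of all reads. Cells with a Ptprc read held 5.11% and 3.70% of the member reads and 12.2% and 21.2% of all reads. The cells with a Ptprc and no Krt8 read had 154.3 CPM of members in 14 control and 42.5 CPM in 42 N1ICD-EGFP cells. The cells with neither read were few, and some of them were rich in members. In the control 7 of them together had 7358 CPM and 7% of the member reads. In the N1ICD-EGFP plate 12 together had 12345 CPM and 28.6%. These 12 include the 2 cells with fibroblast markers, with 24.7% of the plate's member reads, and the 3 with endothelial markers, with 2.71%. The 7 control cells include 1 cell with fibroblast markers, at 13602 CPM of members, and 1 with basal markers, at 4318 CPM. The Krt8-read cells outside every class had 800.4 CPM in control and 956 CPM in N1ICD-EGFP cells. Among the 5 highest cells of each of the 21 genes at 20 CPM, 90.5% and 75.2% of the gene and cell pairs had a Krt8 read, and 3 and 1 had 3 or more Ptprc reads. In the N1ICD-EGFP plate 25 such pairs, from 16 genes, had 3 or more eGFP reads. The median cell had 884 and 690.0 CPM of members, and the highest cells 13916 and 45752 CPM.

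Of the genes that work with collagens and laminins, 3 of 11 basement membrane partners at 5 CPM were at least 2 times higher and 2 lower in the N1ICD-EGFP plate, with a median log2 ratio of 0.38. For this and the lists that follow, 11.1% of all genes at 5 CPM were higher and 8.29% lower, with a median of 0.07. Nid1, which links laminin to collagen IV, was at 8.22 against 38.7 CPM, with 99.2% of the N1ICD-EGFP reads in 5 cells, and Tinagl1, a matricellular protein of basement membranes, at 68.2 against 21.1 CPM. Among 22 collagen modifying enzymes 4 were higher and 1 lower, with a median of -0.02, and none of these reached 20 CPM. Of 11 matrix receptors 1 was higher and 2 lower, with a median of -0.55. The 2 lower were Cd44, the hyaluronan receptor, at 196.6 against 96.95 CPM, and Itga2, a subunit of the collagen-binding integrin alpha2 beta1, at 28.2 against 4.84 CPM.

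Of 10 matrix proteases and inhibitors 2 were higher and 2 lower, with a median of 0.04. Mmp9, a gelatinase of leukocytes, was at 0.124 against 36.6 CPM, Mmp3, a stromelysin, at 31.3 against 9.88 CPM, and Mmp12, the macrophage elastase, at 39.6 CPM in control and without a read in N1ICD-EGFP cells, where 3 reads would be 0.0308 CPM. In each, the 5 highest cells held between 89.99% and 99.9% of the reads of the plate with more. Of 13 interstitial partners 5 were higher and 1 lower, with a median of 0.45. Fibronectin (Fn1) was at 6.15 against 114.6 CPM, fibrillin-1 (Fbn1) at 8.07 against 42.97 CPM, and periostin (Postn), a matricellular protein, at 112.7 against 54.8 CPM. Their 5 highest cells held 88.2% and 86.3% of the Fn1 reads, 92.2% and 99.9% of the Fbn1 reads, and 81.01% and 96.3% of the Postn reads. The 7 fibrillar collagens at 5 CPM held 4 higher and none lower, with a median of 1.38.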

How the data were processed

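Single cells of the sorted mammary glands were sequenced by Smart-Seq2, and the authors deposited 1 table of whole-number read counts per gene and well for each plate. The reads were aligned to mm10 with STAR, per the submitters' processing notes. Versions, counting tool, annotation and strand setting: not given in the sources used here. Of the 24490 rows, 492 duplicate gene names were added together and the eGFP row was set apart. Cells with at least 50000 reads and 1000 genes were kept, which left out 50 control and 101 N1ICD-EGFP wells, and no doublet caller was run. Reads per kept cell ran from 50048 to 608476 (control) and from 51736 to 615615 (N1ICD-EGFP) (80949038 and 97346457 in all). CPM was computed from plate sums, and ratios are log2 of CPM plus 1. A gene was called from 2 times on. Intervals are exact Poisson and Clopper-Pearson at 95% and cover counting error only, as PCR copies of a molecule cannot be recognised here. Reads depend on transcript length, so levels are not compared between genes. Each group is 1 plate, so no count model was fitted. For shares at equal depth, each cell was thinned to 50000 reads. Cell classes needed 3 or more reads of at least 5 markers of a list, or 1000 CPM of Prlr. The members, lists and marker genes were chosen with earlier results of these data known. Named genes are the members at 5 CPM (1 is not reported here), described in full from 20 CPM on, and the genes of related lists at 20 CPM that differed 2 times. The calculation was tested on simulated data. Python 3.11.15, numpy 2.4.6, pandas 2.3.3, scipy 1.17.1 and matplotlib 3.10.9 were used.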

Additional observations from a re-analysis of the deposited data

How the results depend on the processing

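No paired analysis was possible because each group is 1 plate and the numbers given to wells only name cells. Leaving out a replicate was not possible for the same reason. The summed fibrillar collagens had a log2 ratio of 2.27, which became 2.37 with a stricter cell filter, 1.81 with the mean of per-cell CPM, 1.78 after thinning, 2.10 and 2.58 in well columns 1 to 12 and 13 to 24, 2.46 without cells with a Ptprc read, 2.15 without the top cell of each member, 2.19 with a pseudocount of 5, 0.10 without the 5 cells with the most member CPM, and -1.20 in cells with a Krt8 read. The laminin ratio of -0.20 became -0.11 with per-cell CPM, -0.080 after thinning, -0.13 and -0.27 in the well columns, -0.026 without cells with a Ptprc read, -0.10 in cells with a Krt8 read and -0.28 without top cells. The share of member reads in cells with a Krt8 read, 92.6% in the control, was 92.8% with the stricter filter, 92.97% per cell, 88.6% thinned, 88.7% and 98.97% in the well columns, 97.9% without the top 5 cells and 88.9% with Krt8 from 5 reads on. For the N1ICD-EGFP plate, 70.99%, it was 69.5% without the cells with most genes, 74.98% per cell, 74.1% thinned, 69.7% and 72.8% in the well columns, 70.3% without cells with a Ptprc read, 93.3% without the top 5 cells and 67.6% with Krt8 from 5 reads on. In cells with a Krt8 read, 6 members in place of 11 were 2 times higher, and the log2 ratios of Col1a1 (-1.10), Col1a2 (-2.43), Col3a1 (-0.38), Col4a2 (-0.71) and Col5a2 (-1.96) reversed. Through 1 Krt8 read, this setting keeps 1 control cell with fibroblast markers, and it keeps neither of the 2 such N1ICD-EGFP cells. Without the 5 top cells Col1a1 (-0.73) and Col3a1 (-0.10) reversed. In well columns 13 to 24 Col17a1 did (0.41), where 1 of its 10 control cells at 100 CPM or more lay. The cause of these reversals was not tested. Of 17 called members, 11 kept their direction in all 14 settings, and 7 stayed past 2 times in all of them (Col25a1, Col6a1, Col6a2, Col6a3, Col8a1, Col8a2 and Lama4).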
